A study of Homo sapiens with 8 samples.

Results

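The genes described here encode 10 proteins of the small nucleolar ribonucleoprotein particles (snoRNPs): the box C/D core proteins FBL, NOP56, NOP58 and SNU13, the H/ACA core proteins DKC1, NHP2, NOP10 and GAR1, and the H/ACA assembly factors NAF1 and SHQ1. They were taken by name, after the Ensembl gene IDs of the deposited table had been matched to HGNC symbols, and all 10 were found among the 17546 genes of the table. Poly(A) RNA was sequenced from H1, an established line of human embryonic stem cells, in 2 groups of 4 libraries. The NAT10 knockdown group received lentivirus with an shRNA against NAT10, an RNA acetyltransferase, and the control shRNA group received lentivirus with a negative control shRNA. Cells of both groups carried GFP from the virus, were cultured for 48 h, enriched for GFP and expanded in puromycin at 0.5 ug/ml. The labels do not state how many shRNA sequences were used or whether replicates were separate cultures, so p-values reflect library-to-library spread alone, and that spread may be technical. In bulk RNA, fewer cells that express a gene and less RNA per cell cannot be told apart.

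As background, box C/D snoRNPs place methyl groups on the ribose of ribosomal RNA and H/ACA snoRNPs convert uridine to pseudouridine, each at sites chosen by base pairing of a guide RNA. FBL is the methyltransferase and DKC1 the pseudouridine synthase, and the other core proteins hold the guide RNA and the substrate in place. H/ACA proteins are also part of telomerase, and SNU13 also binds the U4 RNA of the spliceosome. NAT10 itself is directed to the small-subunit ribosomal RNA by a box C/D RNA, SNORD13, which ties it to this machinery.

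The libraries held 15574631 to 16305014 recovered reads each. Values below are normalized counts, that is, read counts that the authors divided by 1 size factor per library; log2 fold changes are on the log2(value + 1) scale, knockdown over control, and a gene was called at a limma adjusted p under 0.05. NAT10 averaged 1627 ± 25.5 normalized counts in the knockdown libraries and 2178 ± 98.8 in the control libraries (SD, n = 4 each; log2 fold change -0.42, adjusted p = 5.88e-14). Summed CPM of 11 stem cell markers was 6547 to 6728 in knockdown and 5353 to 5532 in control libraries. The 5 measured of 9 fibroblast markers summed to 806 to 903 CPM in knockdown and 621 to 664 CPM in control libraries. The 3 measured of 13 markers of differentiated lineages summed to 9.22 to 13.1 CPM in knockdown and 7.06 to 8.73 CPM in control libraries; COL3A1, LUM, DCN, SOX17 and TBXT were among those not analysed here. Of the stem cell markers 8 were called up, where 32.3% of all genes were; with library totals 7 were called up and 2 down. POU5F1, NANOG and TERF1 were not called, and POU5F1, a defining factor of these cells, was at -0.50 on the log2 scale (adjusted p = 0.0642, groups overlap); of the fibroblast markers 3 were called up and 1 down, and of the lineage markers 2 up. All 3 sums were higher in knockdown, and their part in the results below was not tested. Abundant genes weigh most in such sums, so a sum does not describe each marker of its set. Over the 8 libraries COL1A1 averaged 552 CPM and DNMT3B 2679 CPM, and both were called up.

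RefSeq promoter windows of GRCh38.p14, from 250 bases before to 50 bases after a transcript start, were at hand for 7 of the 10 genes; GAR1 had 2 windows. The CCAAT motif, read on both strands, occurred in the windows of 6 of these 7 genes (FBL, GAR1, NHP2, NOP10, NOP56 and SHQ1), against 34.6% of all 35116 windows. The E-box CACGTG, which reads the same on both strands, occurred in FBL, GAR1 and NOP10, against 7.26% of all windows. The ETS motif CCGGAAGT, read on both strands, occurred in GAR1 and NOP10, against 4.14%. The counts for these genes are per gene, in any of its windows, while the shares are per window, so the units differ. In GAR1 each motif occurred in 1 of its 2 windows. These motifs do not overlap one another in these windows. A match is a description of the letters, not of binding.

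The stretches below are shown because 2 of the genes rose in knockdown (NOP56 and SHQ1) and 2 were not called (FBL and NHP2), while all 4 carry the CCAAT letters before the RefSeq start of the window; NOP10, which also rose, is shown for its pair of E-boxes. Each is written 5′ to 3′ on the strand of the gene, and capitals mark CCAAT as read on the other strand (ATTGG) or the E-box. The starts of RefSeq and GENCODE 29 differ: the stretches of NOP56, NHP2 and NOP10 lie wholly or in part in GENCODE exons, and that of SHQ1 lies within its GENCODE gene.
NOP56, chr20:2652554-2652583, plus strand: ccccggcctccgATTGGtcgggggggcggg
SHQ1, chr3:72848481-72848695, minus strand: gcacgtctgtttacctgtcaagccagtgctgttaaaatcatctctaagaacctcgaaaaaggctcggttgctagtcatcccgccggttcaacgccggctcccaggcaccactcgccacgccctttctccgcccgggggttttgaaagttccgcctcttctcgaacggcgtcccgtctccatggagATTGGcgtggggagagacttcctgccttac
FBL, chr19:39846415-39846629, minus strand: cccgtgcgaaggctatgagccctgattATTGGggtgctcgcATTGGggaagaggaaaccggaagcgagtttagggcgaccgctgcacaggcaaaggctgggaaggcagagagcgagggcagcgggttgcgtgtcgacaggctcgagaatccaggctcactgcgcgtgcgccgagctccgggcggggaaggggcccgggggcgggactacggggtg
NHP2, chr5:178153943-178153972, minus strand: tgggcgtcaacgATTGGgctgagtcggaga
NHP2, chr5:178153913-178153942, minus strand: cttcctttcctgATTGGccgtgttgtacgg
NOP10, chr15:34343289-34343318, minus strand: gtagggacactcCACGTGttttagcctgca
NOP10, chr15:34343137-34343166, minus strand: caggaaggaaattgacgaaCACGTGacgcg

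In the knockdown libraries 6 of the 10 genes rose: NOP56, NOP58, GAR1, SHQ1, NOP10 and DKC1. For the other 4, FBL, SNU13, NHP2 and NAF1, the groups overlapped and the test was not passed. The box C/D particle was split evenly, with the paired scaffold proteins NOP56 and NOP58 up by nearly the same factor and the methyltransferase FBL and the RNA-binding SNU13 not called. Over all genes 64.7% were called, 32.3% up and 32.4% down, beside 6 of 10 called here, all up. Those shares include genes of low count, while each of the 10 genes averages above 5 CPM. In the fit on the 11690 genes of at least 5 CPM, 4692 were called up and 3850 down. That is a larger share called, and a larger share called up, than over all genes. By limma 0 of the 10 genes fell, and 0 were lower at an unadjusted p under 0.05; edgeR and DESeq2 on recovered reads also called 6 up and 0 down. The median log2 fold change of the 10 was 0.23, against 0.00 over all genes tested.

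**Figure D1:**
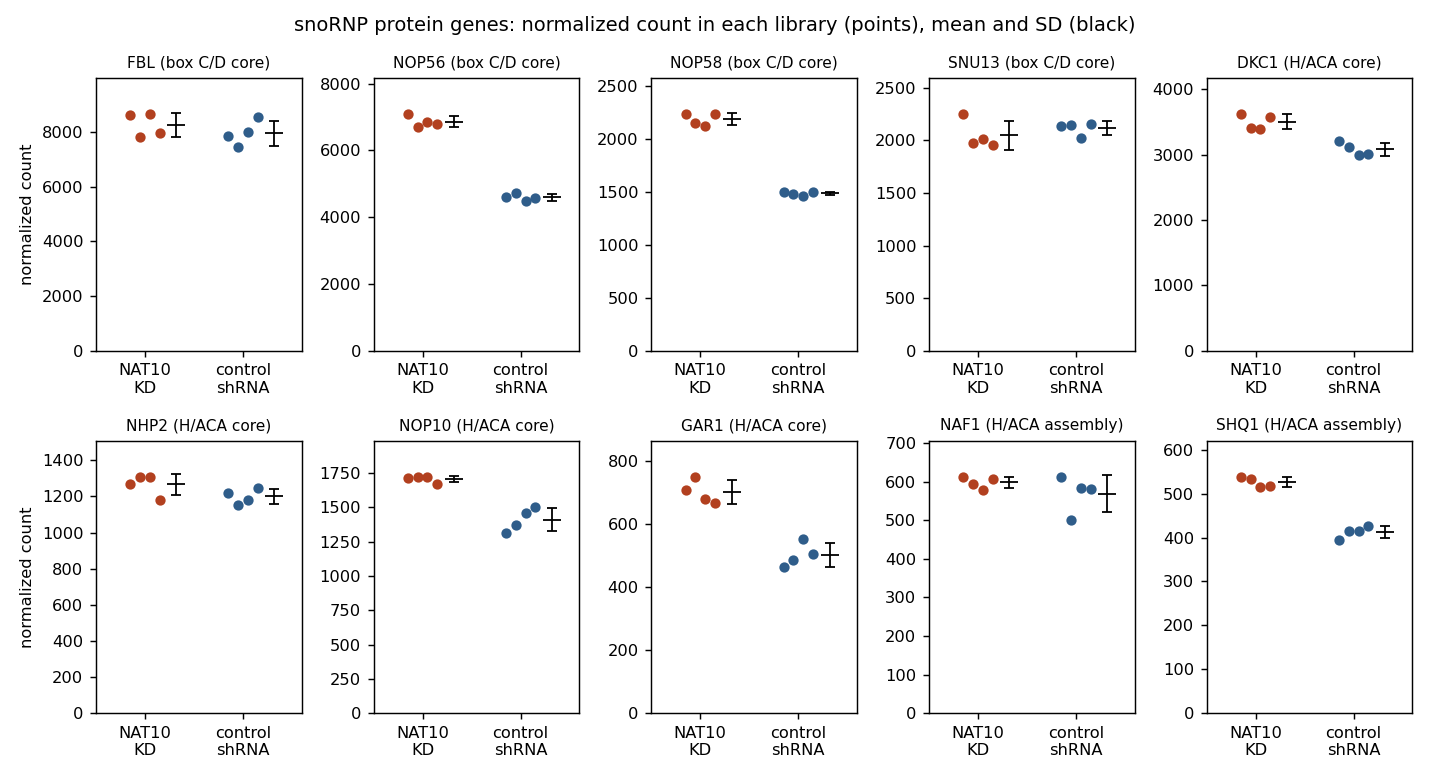
Normalized count of each snoRNP protein gene (vertical axes, from 0) in the 4 NAT10 knockdown libraries (left, red) and the 4 control shRNA libraries (right, blue), with mean and SD in black. For NOP56, NOP58, DKC1, NOP10, GAR1 and SHQ1 every knockdown point lies above every control point; for FBL, SNU13, NHP2 and NAF1 the points overlap.

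Among the box C/D proteins, FBL (ENSG00000105202, hg38 chromosome 19, 39834458 to 39846414, minus strand), the methyltransferase of the particle, had 8627, 7823, 8663 and 7955 normalized counts in knockdown libraries 1 to 4 and 7847, 7450, 7993 and 8561 in control libraries 1 to 4. The ranges overlap, with control library 4 above 2 of the knockdown libraries. The log2 fold change was 0.05 (95% interval -0.02 to 0.13, adjusted p = 0.203). On the authors' scaling this leaves room for a mean fold between 0.985 and 1.09. Without control replicate 4 the log2 fold change was 0.090 and passed (adjusted p = 0.0288). With library totals as the scaling it was -0.054 and did not pass (adjusted p = 0.215). FBLL1, a paralog of fibrillarin, fell to 95.1 ± 13.3 normalized counts in knockdown, against 139 ± 17.6 in control (SD, n = 4 each; log2 fold change -0.55, adjusted p = 1.89e-05).

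NOP56 (ENSG00000101361, chromosome 20, 2652145 to 2658393, plus strand), a scaffold protein of the box C/D core, had 7091, 6712, 6854 and 6784 normalized counts in knockdown libraries and 4591, 4727, 4495 and 4563 in control libraries. All 4 knockdown values lie above all 4 control values. The means were 6860 ± 164 in knockdown and 4594 ± 97.7 in control (SD, n = 4 each), 1.49-fold, with a log2 fold change of 0.58 (standard error 0.0313, adjusted p = 3.97e-22). Among genes of at least 5 CPM, 92.2% had a lower log2 fold change than NOP56. Its pseudogene NOP56P3, the one such pseudogene measured, carried 36.1 ± 3.61 normalized counts in knockdown and 24.2 ± 4.89 in control (log2 fold change 0.57, adjusted p = 0.00784). How reads were divided between NOP56 and its processed copies is not given in the sources used here, so the value of NOP56P3 is uncertain.

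NOP58 (ENSG00000055044, chromosome 2, 202265716 to 202303666, plus strand), the paralog that pairs with NOP56 in the particle, had 2240, 2157, 2130 and 2235 normalized counts in knockdown and 1501, 1485, 1468 and 1498 in control libraries. The groups are far apart, and the control libraries lie close together (SD 1.0% of the mean). The rise was 1.47-fold, 0.56 on the log2 scale (standard error 0.0367, adjusted p = 8.40e-19).

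SNU13 (ENSG00000100138, chromosome 22, 41673930 to 41690504, minus strand), which binds the kink-turn of box C/D RNAs and of U4, had 2252, 1974, 2016 and 1952 normalized counts in knockdown and 2141, 2147, 2019 and 2160 in control libraries. Knockdown library 1 was the highest of all 8 and the other 3 knockdown libraries were the lowest. The log2 fold change was -0.05 (95% interval -0.13 to 0.03, adjusted p = 0.277). The fit that left out knockdown replicate 1 gave -0.096 and passed (adjusted p = 0.0361), and with library totals as the scaling it was -0.16 (adjusted p = 0.000429). SNU13 shares 43 exonic bases with C22orf46P on the opposite strand, a gene that had 293 ± 12.4 normalized counts in knockdown and 202 ± 33.0 in control (adjusted p = 9.83e-08), and the strand setting of the counting is not given in the sources used here.

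Among the H/ACA proteins, DKC1 (ENSG00000130826, chromosome X, 154762742 to 154777689, plus strand), the pseudouridine synthase, had 3625, 3408, 3399 and 3581 normalized counts in knockdown and 3204, 3121, 2999 and 3006 in control libraries. The groups do not overlap, although the gap between the lowest knockdown and the highest control library is small. The rise was 1.14-fold, 0.18 on the log2 scale (standard error 0.0346, adjusted p = 7.45e-06). With library totals as the scaling the rise of DKC1 was 0.076 (adjusted p = 0.0462).

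NOP10 (ENSG00000182117, chromosome 15, 34341713 to 34343177, minus strand), the smallest transcript of the set and a protein that contacts the synthase directly, had 1713, 1723, 1719 and 1670 normalized counts in knockdown and 1311, 1371, 1455 and 1501 in control libraries. Knockdown libraries were close together (SD 1.45% of the mean) and control libraries more spread (SD 6.03% of the mean), without overlap. The log2 fold change was 0.28 (standard error 0.0404, adjusted p = 4.46e-08), and 0.17 with library totals (adjusted p = 0.000306).

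GAR1 (ENSG00000109534, chromosome 4, 109815510 to 109824740, plus strand), which completes the mature H/ACA particle, had 709, 750, 681 and 666 normalized counts in knockdown and 465, 486, 552 and 505 in control libraries. Every knockdown library was above every control library. The 1.40-fold rise was 0.48 on the log2 scale (standard error 0.0542, adjusted p = 4.98e-11).

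NHP2 (ENSG00000145912, chromosome 5, 178149460 to 178153967, minus strand), an RNA-binding protein of the same fold family as SNU13, had 1268, 1309, 1307 and 1182 normalized counts in knockdown and 1220, 1150, 1181 and 1247 in control libraries. The ranges overlap through knockdown library 4. The log2 fold change was 0.08 (95% interval -0.01 to 0.16, adjusted p = 0.0996); leaving out knockdown replicate 4 gave 0.11 and passed (adjusted p = 0.0266). NHP2 shares 414 exonic bases with RMND5B on the opposite strand, which had 1521 ± 70.1 normalized counts in knockdown and 1343 ± 60.4 in control (log2 fold change 0.18, adjusted p = 0.000168; with library totals 0.071, adjusted p = 0.125), so reads of the shared bases cannot be told apart if strand was not used.

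The assembly factors also differed from each other. NAF1 (ENSG00000145414, chromosome 4, 163110073 to 163166921, minus strand), which holds the place of GAR1 in the immature particle, had 613, 594, 579 and 605 normalized counts in knockdown and 611, 499, 582 and 580 in control libraries. Control library 2 was the lowest and the others overlap (log2 fold change 0.08, 95% interval -0.03 to 0.19, adjusted p = 0.218). SHQ1 (ENSG00000144736, chromosome 3, 72749277 to 72861914, minus strand), a chaperone that holds DKC1 before assembly, had 538, 533, 515 and 517 normalized counts in knockdown and 394, 415, 416 and 425 in control libraries. Its groups are apart, with a 1.27-fold rise and a log2 fold change of 0.35 (standard error 0.0547, adjusted p = 2.31e-07).

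**Figure D2:**
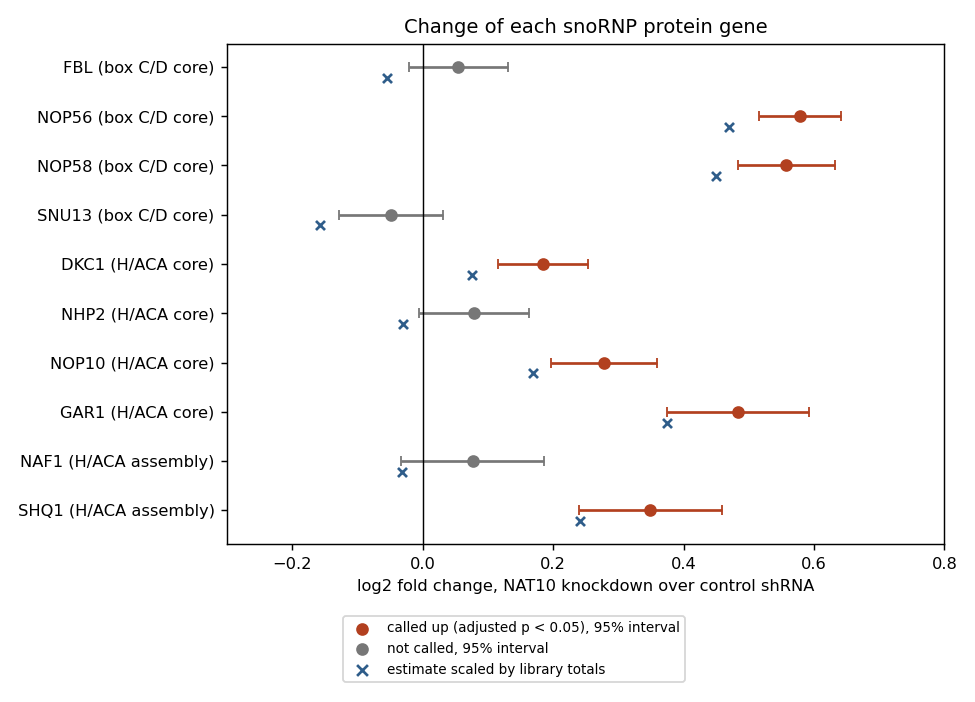
Log2 fold change of each gene, NAT10 knockdown over control shRNA (horizontal axis), with its limma 95% interval; red circles are called up, grey circles are not called, and blue crosses are the estimates when libraries are scaled by their totals. Every cross lies to the left of its circle: NOP56 is at 0.58 and its cross at 0.47, and FBL, NHP2 and NAF1 have crosses below 0.

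The groups did not overlap for the 6 genes that rose, each with all knockdown libraries above all control libraries; 56.7% of all genes had groups that did not overlap, and 28.4% had all knockdown libraries on top. Directions are relative to the authors' scaling: with library totals the median of all genes moved to -0.11, and 23.2% of genes were called up. On that scaling the same 6 genes were called up, with overlapping groups for DKC1, and SNU13 was called down. Across the 18 alternatives that were run, NOP56, NOP58, DKC1, NOP10, GAR1 and SHQ1 were called up in each.

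Levels between genes can be set side by side only per length, as RPKM, reads per kilobase of the longest principal transcript in GENCODE 29, scaled to CPM by library totals. On this level scale FBL was highest, at 428 ± 23.1 in knockdown and 445 ± 26.0 in control (SD, n = 4 each). NOP10 followed at 185 ± 3.13 in knockdown and 165 ± 10.5 in control, and NOP56 at 172 ± 3.89 in knockdown and 124 ± 2.41 in control. NOP10 and NOP56 thus lay close together in knockdown and apart in control, without overlap of libraries in either group.

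NHP2, SNU13 and DKC1 formed a middle tier. Per-length levels were 88.0 ± 4.37, 81.9 ± 5.397 and 81.7 ± 2.44 in knockdown libraries, where the ranges of neighbours overlap. Control libraries had 89.9 ± 3.06, 91.3 ± 2.45 and 77.5 ± 2.16, with NHP2 and SNU13 overlapping and DKC1 below both.

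NOP58 was lower than its partner NOP56, at a level of 64.4 ± 1.40 in knockdown and 47.1 ± 0.269 in control. The lowest levels were those of GAR1 (34.5 ± 1.86 in knockdown, 26.6 ± 2.09 in control), NAF1 (18.8 ± 0.395 in knockdown, 19.3 ± 1.62 in control) and SHQ1 (10.98 ± 0.230 in knockdown, 9.29 ± 0.322 in control). From NOP58 downward no neighbours overlap in either group, so core proteins lay above assembly factors. These levels depend on the transcript chosen: per kilobase of all annotated exons, NOP56 was at 76.4 and NAF1 at 7.47 in knockdown libraries.

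**Figure D3:**
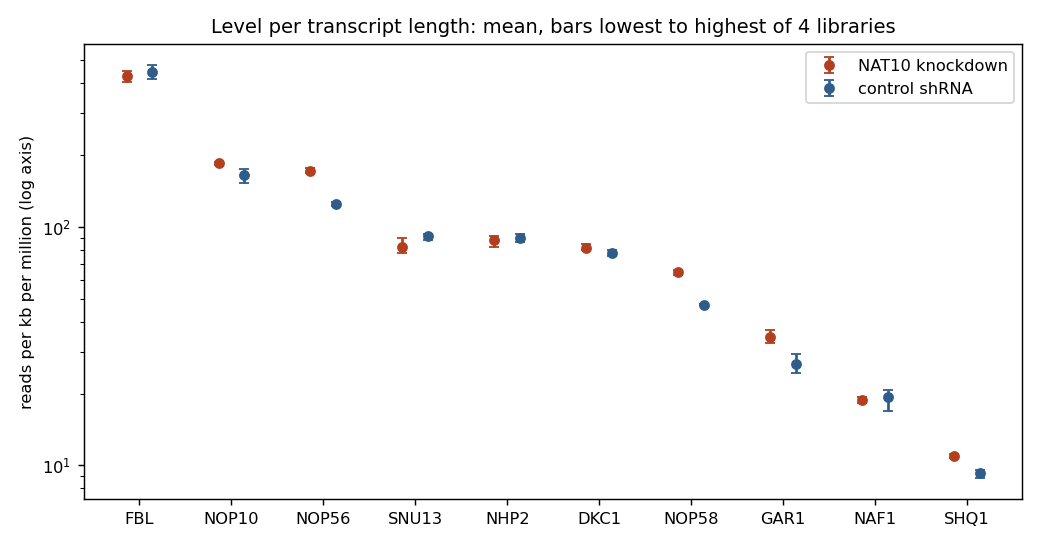
RPKM on the principal transcript (log axis) for each gene, as the mean of 4 libraries with bars from the lowest to the highest, knockdown in red on the left and control in blue on the right of each pair. FBL tops both groups (428 in knockdown, 445 in control), SHQ1 is lowest (10.98 in knockdown, 9.29 in control), and NOP56 and NOP58 stand higher in knockdown.

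Ratios between 2 genes of a particle within a library do not depend on the scaling between libraries. NOP56:NOP58 was 3.17, 3.11, 3.22 and 3.04 in knockdown libraries and 3.06, 3.18, 3.06 and 3.05 in control libraries. The scaffold pair thus kept overlapping ratios while each gene rose by about the same factor (difference in log2 ratio 0.02, two-sided exact permutation p = 0.371). FBL:SNU13 averaged 4.04 ± 0.197 in knockdown and 3.76 ± 0.240 in control (SD, n = 4 each; exact permutation p = 0.143). NHP2:DKC1 averaged 0.362 ± 0.0268 in knockdown and 0.389 ± 0.0198 in control (exact permutation p = 0.200), and NOP10:DKC1 0.488 ± 0.0211 in knockdown and 0.458 ± 0.0416 in control (exact permutation p = 0.286). These 3 ratios overlapped between the groups as well.

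GAR1:NAF1, the mature subunit over the one it replaces, was 1.16, 1.26, 1.18 and 1.1 in knockdown libraries and 0.761, 0.972, 0.947 and 0.871 in control libraries. Every knockdown ratio was above every control ratio, a difference of 0.41 in log2 ratio. These are ratios of counts, not of levels: per length GAR1 was above NAF1 in both groups. SHQ1:DKC1 was 0.150 ± 0.00506 in knockdown and 0.134 ± 0.00810 in control, a difference of 0.17 in log2 ratio, again without overlap. Both had an exact permutation p of 0.0286, the smallest that 4 against 4 can give, and 0.0857 after Benjamini-Hochberg adjustment over the 6 ratios, which does not pass.

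The ratio FBL:NOP56, chosen after the values were seen and so given without a test, was 1.22, 1.17, 1.26 and 1.17 in knockdown libraries and 1.71, 1.58, 1.78 and 1.88 in control libraries. SNU13:NOP56, chosen in the same way, was 0.318, 0.294, 0.294 and 0.288 in knockdown and 0.466, 0.454, 0.449 and 0.473 in control libraries. Both ratios were lower in each knockdown library than in any control library. With NOP56 as the denominator, this restates its rise beside FBL and SNU13, which were not called. Summed normalized counts of the 4 box C/D core genes were 19366 ± 704 in knockdown and 16161 ± 428 in control, and of the 4 H/ACA core genes 7178 ± 101.2 in knockdown and 6193 ± 54.2 in control.

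**Figure D4:**
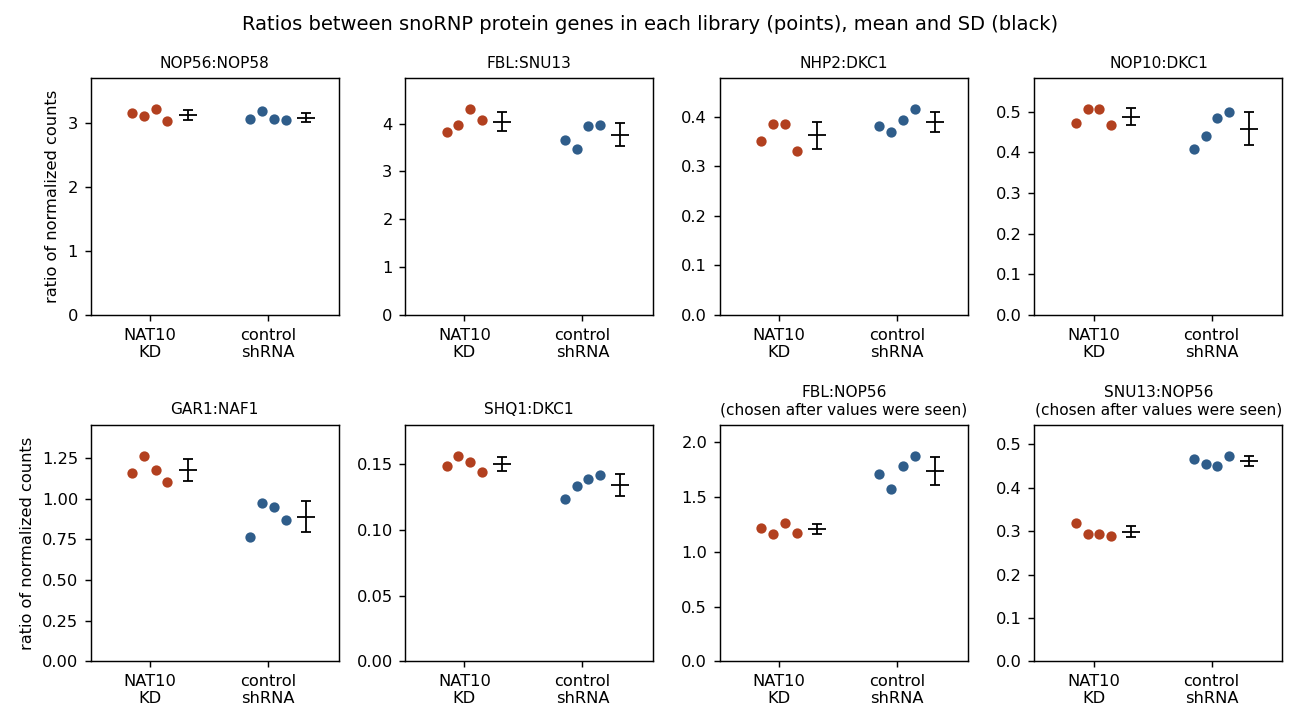
Ratio of normalized counts of 2 genes (vertical axes, from 0) in each NAT10 knockdown library (left, red) and control shRNA library (right, blue), with mean and SD in black. NOP56:NOP58 stays near 3.1 in both groups, GAR1:NAF1 and SHQ1:DKC1 are higher in each knockdown library than in any control library, and FBL:NOP56 and SNU13:NOP56 are lower in knockdown.

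After the mean of each group was removed, Pearson correlations between pairs of the 10 genes over the 8 libraries ranged from -0.75 (DKC1 with NOP10) to 0.83 (NOP56 with SNU13), with a median of 0.15 over 45 pairs; this is a description, since all genes of a library share its preparation and scaling. Over both groups, the 5 other genes whose profile was most like the mean standardized profile of the 10 were PDCL3 (r = 0.993), COPS9, PSMD8, NRF1 and NRBP1 (r = 0.984), out of 11476 genes of at least 5 CPM, over 8 libraries. A total of 205 genes had r above 0.95, and the difference between the groups enters each such value.

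Genes that act on the same particles were compared with the 10. In the list of assembly chaperones, the HSP90 and R2TP machinery that loads core proteins on guide RNAs, 2 of 9 measured genes rose and 3 fell (median log2 fold change -0.03). Over all genes 32.3% were called up and 32.4% down. RUVBL1, an ATPase of R2TP, fell to 1839 ± 86.3 normalized counts in knockdown, against 2076 ± 111 in control (SD, n = 4 each; adjusted p = 0.000158), and RPAP3, its scaffold, changed by -0.15 on the log2 scale (adjusted p = 0.00166). The groups overlap for RUVBL1 but not for RPAP3. The chaperone HSP90AA1 rose by 0.14 and NUFIP1, which bridges box C/D proteins during assembly, by 0.18 (adjusted p = 1.62e-05 and 0.00311). With library totals neither HSP90AA1 nor NUFIP1 passed and 6 of the 9 fell, where 41.9% of all genes were called down.

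All 6 nucleolar and Cajal body partners rose, with a median of 0.23, where 32.3% of all genes were called up. PHAX, an adaptor for export and transport of capped small RNAs, had 1309 ± 65.3 normalized counts in knockdown and 918 ± 26.5 in control (log2 fold change 0.51, adjusted p = 5.67e-15). COIL, the coilin scaffold of Cajal bodies, rose by 0.38, and NOLC1, which binds both snoRNP classes in the nucleolus, by 0.31. With library totals 3 of the 6 rose, where 23.2% of all genes were called up.

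The 4 partners of the U3 snoRNP, the box C/D particle that takes part in rRNA cleavage, rose too (median 0.36), although the groups overlap for IMP3. With library totals 3 of the 4 rose. The shares of all genes called up were 32.3%, and 23.2% with library totals. RRP9, the U3-specific protein, averaged 1046 ± 27.4 normalized counts in knockdown and 821 ± 28.1 in control (log2 fold change 0.35, adjusted p = 1.08e-09). MPHOSPH10 rose by 0.41 and IMP4 by 0.36. Among the U4 partners of SNU13, PRPF4 rose by 0.45 and PRPF3 by 0.23, and PPIH had 847 ± 52.2 normalized counts in knockdown and 835 ± 20.2 in control (adjusted p = 0.740).

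In the telomerase list, where H/ACA proteins bind the telomerase RNA, 1 of 5 measured genes rose, against 32.3% of all genes. This was TOE1, a deadenylase that trims small nuclear RNAs, with 449 ± 8.49 normalized counts in knockdown and 150 ± 4.23 in control (log2 fold change 1.57, adjusted p = 5.99e-26); it shares 552 exonic bases with MUTYH on the opposite strand. TERT, the reverse transcriptase, had 360 ± 23.8 in knockdown and 380 ± 22.3 in control (log2 fold change -0.08, adjusted p = 0.283); with library totals its change was -0.19 and passed (adjusted p = 0.00906). WRAP53, which brings H/ACA RNAs to Cajal bodies, had 623 ± 21.4 in knockdown and 608 ± 37.9 in control (adjusted p = 0.551). Among the genes not called, 1 had only 0 to 49 reads per library, so its change is not known. With library totals 1 of the 5 was called up and 2 down, where 23.2% of all genes were called up and 41.9% down.

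Of 9 enzymes that modify rRNA without a snoRNP protein core, 6 rose and 1 fell (median 0.21), where 32.3% of all genes rose and 32.4% fell. With library totals 4 rose and 1 fell, where 23.2% of all genes rose and 41.9% fell. TSR3, which completes a hypermodified base of the small subunit, rose by 0.28, and the dimethyltransferase DIMT1 by 0.24 (adjusted p = 1.80e-06 and 0.000135). METTL5, an adenine methyltransferase of the small subunit, fell to 702 ± 45.4 normalized counts in knockdown, against 930 ± 79.4 in control (log2 fold change -0.40, adjusted p = 4.21e-09); it shares 572 exonic bases with SSB on the opposite strand.

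The MYC family, transcription factors that bind E-boxes, moved in both directions. MYCN rose to 2169 ± 42.3 normalized counts in knockdown, against 1504 ± 31.7 in control (log2 fold change 0.53, adjusted p = 7.11e-18). MYC fell to 1872 ± 119 in knockdown, against 2521 ± 104 in control (log2 fold change -0.43, adjusted p = 2.65e-13), and MYCL to 207 ± 9.17 in knockdown, against 506 ± 32.6 in control. MAX, the common partner of these factors, rose by 0.15 (adjusted p = 0.0200), with groups that overlap. With library totals 1 of the 4 genes was called up and 2 down, where 23.2% of all genes were called up and 41.9% down.

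For comparison, 23 of 27 small-subunit processome factors rose (median 0.25) and 22 of 29 large-subunit assembly factors rose and 2 fell (median 0.32), against 6 of 10 snoRNP proteins (median 0.23) and 32.3% of all genes. Examples are UTP14A (log2 fold change 1.27), DHX37 (0.74) and UTP20 (0.68) of the processome, and MRTO4 (0.87), NIP7 (0.68) and DDX56 (0.67) of the large subunit. RSL24D1 changed by -0.22 (adjusted p = 9.81e-07) and GNL2 by -0.09 (adjusted p = 0.0200); the call of GNL2 was lost without control replicate 2, knockdown replicate 2 or knockdown replicate 3 (adjusted p = 0.136, 0.0526 and 0.0563). Scaling by library totals left 17 processome factors called up and 0 down. For the large-subunit factors that scaling left 19 up, while 4 were called down. The matching shares over the whole set of genes were 23.2% up and 41.9% down. Differences between these lists and the snoRNP proteins were not tested. The share of 32.3% includes genes of low count. In the fit on genes of at least 5 CPM, 4692 of 11690 were called up, a larger share. Several of the partner genes share exonic bases with a gene on the opposite strand, among them NIP7 (957 bases, COG8), RUVBL1 (370, EEFSEC), PRPF4 (208, CDC26) and TSR3 (202, BAIAP3), so their values are uncertain if strand was not used. The 11 listed snoRNAs, those hosted in introns of NOP56, NOP58 and DKC1 and SNORD13, were not analysed here.

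**Figure D5:**
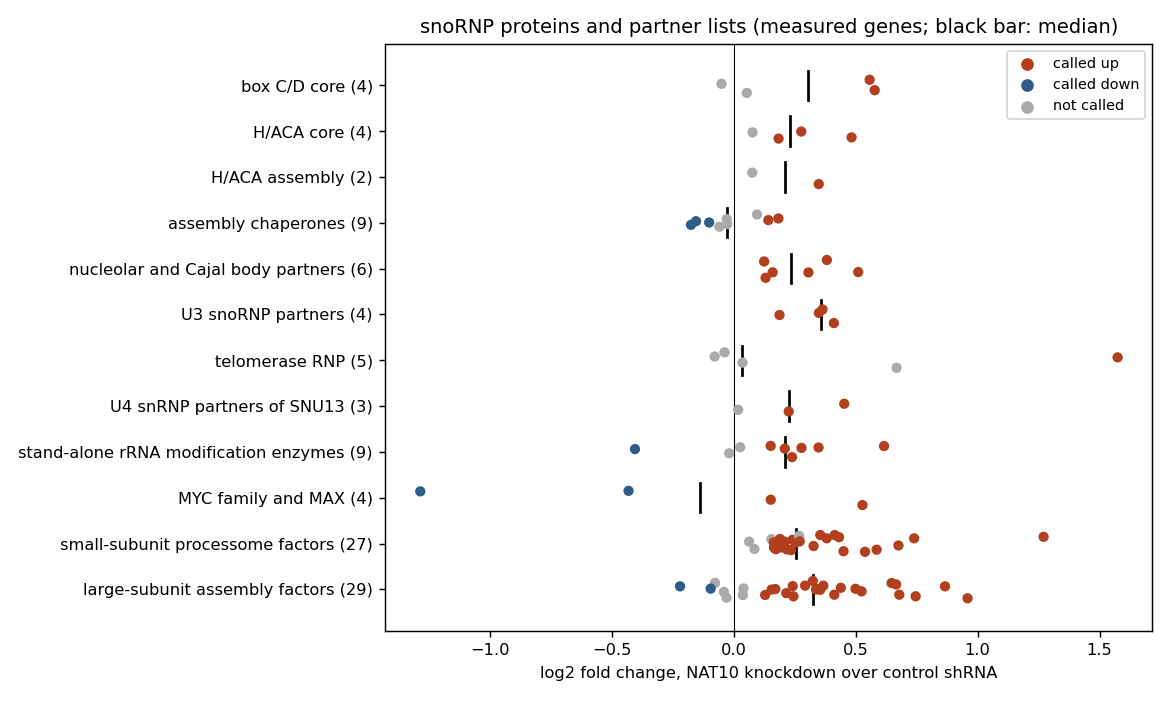
Log2 fold change, NAT10 knockdown over control shRNA (horizontal axis), of each measured gene in the snoRNP protein groups and in 9 lists of partner genes (rows, number of genes in brackets); red points are called up, blue points called down and grey points not called, and black bars are medians. The U3 and the nucleolar and Cajal body partners are all red, and assembly chaperones lie around 0.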

How the data were processed

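Per the submitters' processing notes, which give no order or settings, the tools were DESeq2 1.26.0, featureCounts 2.0.3, SAMtools 1.12, HISAT2 2.2.1 and fastp 0.21.1, and the build was hg38. Annotation and strand setting: not given in the sources used here. Each deposited value is a signal, found from the values to be a gene's read count divided by 1 size factor for its library (0.971 to 1.04). Dividing by a constant step returned whole reads for 100% of values per library, within 1e-05 of a read. Control library 2 has a step close to 1 and was treated alike.

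The design provided for counts or for scaled counts; since the values are scaled, genes were tested with limma 3.58.1 using a trended and robust prior (R 4.3.3), fitted to log2(value + 1) with no covariate, and Benjamini-Hochberg adjustment over all 17546 genes at 0.05. edgeR 4.0.16 and DESeq2 1.42.0 ran on recovered reads as alternatives. Ratios were tested by exact permutation, two-sided (SciPy 1.17.1). Fold changes on the log2(value + 1) scale understate changes of low genes. Symbols were found for 17532 IDs; positions and lengths came from GENCODE 29 on GRCh38 (17225 IDs), and promoters from RefSeq. The members and lists were chosen with earlier results of these data known. Named genes are the 10 members, NAT10, in each list the 3 genes of lowest adjusted p and up to 2 called against its direction, measured pseudogenes and the 5 most alike genes; genes that overlap a member, FBL:NOP56, SNU13:NOP56 and the motifs were added after the values were seen.

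Pairs of libraries differed by a chi-square per gene of 1.80 to 2.53 inside a group and 28.3 to 29.3 across groups. All libraries were entered in the tests as separate samples. The chi-square values cannot tell separate cultures from technical repeats of the same culture, since the spread inside a group may be technical. At 0 reads a gene could still be at 0.193 CPM in the shallowest library (3 counts, counting error only). The limma fit was tested on simulated data for all 17546 genes of this comparison, with changes given to genes above 300 normalized counts. It found 14 of 50 at 1.1-fold, 49 of 50 at 1.25-fold and 50 of 50 at both 1.5- and 2-fold, beside 10 genes with no change. Only 50 genes were changed at each fold, while 64.7% of all genes were called in the data. The adjustment is stricter when few genes change, so the recovery at 1.1-fold does not describe this comparison. Figures were drawn with matplotlib 3.10.9.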

Additional observations from a re-analysis of the deposited data

Results flagged for a closer look

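In 122 groups of 4 libraries examined for the genes and ratios named above, 4 held a library far from the other 3, where chance flags about 1 in 20 groups. SNU13 had 2019 normalized counts in control library 3, against 2141 to 2160 in the other 3 control libraries. The ratio NOP56:NOP58 was 3.18 in control library 2, against 3.05 to 3.06 in the others. METTL5 had 770 normalized counts in knockdown library 2, against 674 to 683 in the others. PAX6, a neural transcription factor of the lineage markers, had 3.87 normalized counts in control library 1, against 1.92 to 1.98 in the others, values of a few reads.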

How the results depend on the processing

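The alternatives were edgeR, DESeq2 and limma-voom on recovered reads, library totals, TMM factors, pseudocounts of 0.5 and 5, a minimum of 5 CPM, a replicate block, an adjusted p under 0.01 and leaving out each library. The 6 genes that rose were called up in all 18. The number called down was 1 with library totals (SNU13) and 0 to 1 without single libraries, where 6 to 7 were called up. With library totals FBL, NHP2, NAF1, WRAP53 and PPIH changed sign, to -0.054, -0.031, -0.032, -0.072 and -0.090, none past the threshold, where that scaling moves the median of all genes to -0.11; PPIH was also at -0.0077 without knockdown replicate 1 and -0.0054 without knockdown replicate 2, and reached 0.048 without knockdown replicate 4. Over all genes 4079 to 5681 were called up and 3850 to 7349 down. Same-numbered libraries did not deviate together (correlations -0.13 to -0.01 over 4 pairs, and -0.16 to 0.16 over pairs of unlike number). The labels do not state what the numbers mark, so these values cannot exclude a shared culture or day. With the replicate block 6 members were called up, with 5592 genes up and 5625 down. For the 6 ratios, sign-flip tests with the replicate block gave p from 0.125, the smallest 4 pairs can give, to 0.500. Without single libraries GAR1:NAF1 ranged from 0.34 to 0.45 and SHQ1:DKC1 from 0.13 to 0.19, where the smallest possible p is 0.0571. On the authors' scaling the interval of FBL allows a rise to 1.09-fold at this depth and number of libraries.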
